A study of Mus musculus with 6 samples.

Results

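Cells keep reactive oxygen and free iron in check with a set of proteins. Many of their genes are under the control of the transcription factor NRF2. The RNA levels of 37 genes of this kind are described here in mouse peritoneal cells cultured to yield mast cells. The set was chosen by gene name, with earlier results of these data known. It covers NRF2 and its regulators, glutathione synthesis and use, the thioredoxin system, NADPH supply, heme breakdown, the ferritins and the iron transporters. All 37 were found among the 17320 genes of the table, and 35 of them passed the filter on low values (a mean of at least 1 over all libraries, passed by 13517 genes). RNA was sequenced in 6 libraries, each of peritoneal cells (PC) that had grown 9 days in SCF and IL-3, in medium that also held β-mercaptoethanol. The labels give 3 libraries as Mcemp1-/- (replicates 4, 5 and 6) and 3 as Mcemp1+/+ (replicates 1, 2 and 3). The knockout line is C57BL/6 with a small frameshift deletion in exon 1 of Mcemp1, made with CRISPR/Cas9, and Mcemp1 encodes a membrane protein of mast cells that the study examined as a partner of the SCF receptor KIT. No sorting step is stated for these cultures. The labels give no age, sex, litter or batch, and the sample numbers in the column headers repeat, so that more than 1 numbering was used; which libraries were handled together is not stated, and its part in the results cannot be told apart from the genotype. The labels also do not say whether the libraries came from separate mice, so p-values measure only the spread between these libraries.

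NRF2 (gene Nfe2l2) is made continuously and, in unstressed cells, is held by KEAP1 and marked for degradation. Electrophiles and oxidants stop KEAP1 from doing so, and NRF2 then pairs with a small MAF protein and binds antioxidant response elements near its target genes. Much of its regulation is therefore at the level of the protein, which RNA sequencing does not measure. Mast cells make large amounts of proteases and of prostaglandin D2, whose synthase uses glutathione.

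The libraries were not alike within the Mcemp1-/- group. Mcemp1 itself was 0.201, 0.0849 and 4.23 normalized counts in the libraries labelled Mcemp1-/- replicates 4, 5 and 6, against 9.80, 7.68 and 16.9 in the Mcemp1+/+ libraries. Its RNA was thus near the bottom of the scale in replicates 4 and 5 and clearly present in the library labelled replicate 6, although a frameshift need not remove the RNA. Mast cell markers were abundant in every library. The 17 markers summed to 52344, 53455 and 29672 in the Mcemp1-/- libraries and to 27763, 28165 and 29153 in the Mcemp1+/+ libraries. The protease Cpa3 was the most abundant. As deposited, 9 of the 17 were higher and 1 (Hdc) was lower without overlap in the libraries labelled Mcemp1-/-. The 15 markers of neutrophil precursors summed to 486, 355 and 13824 in the Mcemp1-/- libraries and to 12006, 9202 and 15303 in the Mcemp1+/+ libraries, and the 11 macrophage markers in the table to 21.1, 6.83 and 1035 against 601, 1001 and 1163. Mpo and Elane, which define neutrophil precursors, were near 0 in replicates 4 and 5 (at most 1.06 and 0.201). Mpo was at 5753 in replicate 6 and 6685, 5105 and 6251 in the Mcemp1+/+ libraries. This was above Kit, at 1827 in replicate 6 and 1700, 1704 and 1800 in the Mcemp1+/+ libraries, so those cultures were not mast cells alone. Ctsg, also a listed neutrophil precursor marker, did not follow Mpo. It was at 436, 346 and 654 in the Mcemp1-/- libraries and 557, 437 and 424 in the Mcemp1+/+ libraries. The library labelled Mcemp1-/- replicate 6 therefore resembled the Mcemp1+/+ libraries in the sums of these 2 lists and of the mast cell list. Its macrophage sum was mostly Lyz2 (892 of 1035). Of the 11 macrophage markers, 5 were lower without overlap in the libraries labelled Mcemp1-/-, among them Mrc1 (10.6 in replicate 6, against 19.8, 29.4 and 37.0). In the 8 eosinophil markers replicate 6 did not resemble the Mcemp1+/+ libraries. They summed to 10.6, 11.2 and 12.8 in the libraries labelled Mcemp1-/- and to 52.2, 88.3 and 140 in the Mcemp1+/+ libraries. Whether its label or genotype is right was not tested, and an error there would change the group means and the counts without overlap, so tests are given with and without it. It shared Xist, the RNA of female cells, with Mcemp1+/+ replicate 3 (1481 and 1297). Xist was 0.207 and 0.341 in Mcemp1-/- replicates 4 and 5, and 0.165 and 0.0537 in Mcemp1+/+ replicates 1 and 2. Leaving out replicate 6 thus also leaves out the only Mcemp1-/- library with clear Xist, and the part of sex was not tested. Mcemp1+/+ replicate 2 stood apart in small nucleolar and small nuclear RNAs, which summed to 35265 against 24.8 to 29.1 in the other libraries. Values are the deposited normalized counts, whose library totals were 932999 to 989051, so that 1 unit is close to 1 CPM.

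Of the 35 members tested, 14 were higher in all 3 libraries labelled Mcemp1-/- than in any Mcemp1+/+ library, which is 40%, beside 14.8% of all genes tested. These were the KEAP1-binding protein gene Sqstm1, the quinone reductase gene Nqo1, the glutathione synthesis genes Gclc, Gclm and Gss, the thioredoxin system genes Txn1, Txnrd1 and Srxn1, the antioxidant enzyme genes Sod1 and Cat, the NADPH supply genes Taldo1 and Me1, the heme breakdown gene Blvrb and the ferritin light chain gene Ftl1. Only Prdx6 and Tkt were lower with no overlap, 5.71% of the members beside 14.7% of all genes tested. No member passed limma's test with Benjamini-Hochberg adjustment in all 6 libraries, in which 0.0148% of all genes were called higher and 0.0592% lower. The lowest adjusted p of a member was 0.111 (Gclm), and with limma at an unadjusted p under 0.05 there were 15 members higher and 2 lower, 42.9% and 5.71% of those tested, beside 11.6% and 13.8% of all genes. Without the library labelled replicate 6, limma called 16 members higher and 10 lower, 45.7% and 28.6%, beside 19.4% and 22.4% of all genes. The share of higher members was thus above that of all genes in each of these counts except the adjusted test in all 6 libraries, which no member passed, while the share of lower members was below it in all 6 libraries and above it without replicate 6. Because the members were chosen with earlier results of these data known, these shares describe the list and do not test it. In 13 members the library labelled replicate 6 lay between the Mcemp1+/+ range and the other 2 Mcemp1-/- libraries on the higher side, which is 37.1% of the members and was so for 11.4% of all genes tested. Nfe2l2, Keap1, Bach1, Slc7a11, Gpx4, Txn1, G6pdx, Gstp1 and Mgst3 passed the adjusted test neither with nor without replicate 6. In 10 members replicates 4 and 5 lay outside the Mcemp1+/+ range on 1 side and replicate 6 lay inside it. The share of all genes with this pattern was not counted, so it cannot be read as particular to the members. The median log2 difference of the members was 0.05, beside -0.01 for all genes tested. In bulk RNA, fewer cells of a type and less RNA per cell cannot be told apart, and the summed mast cell markers were themselves higher in replicates 4 and 5.

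**Figure D1:**
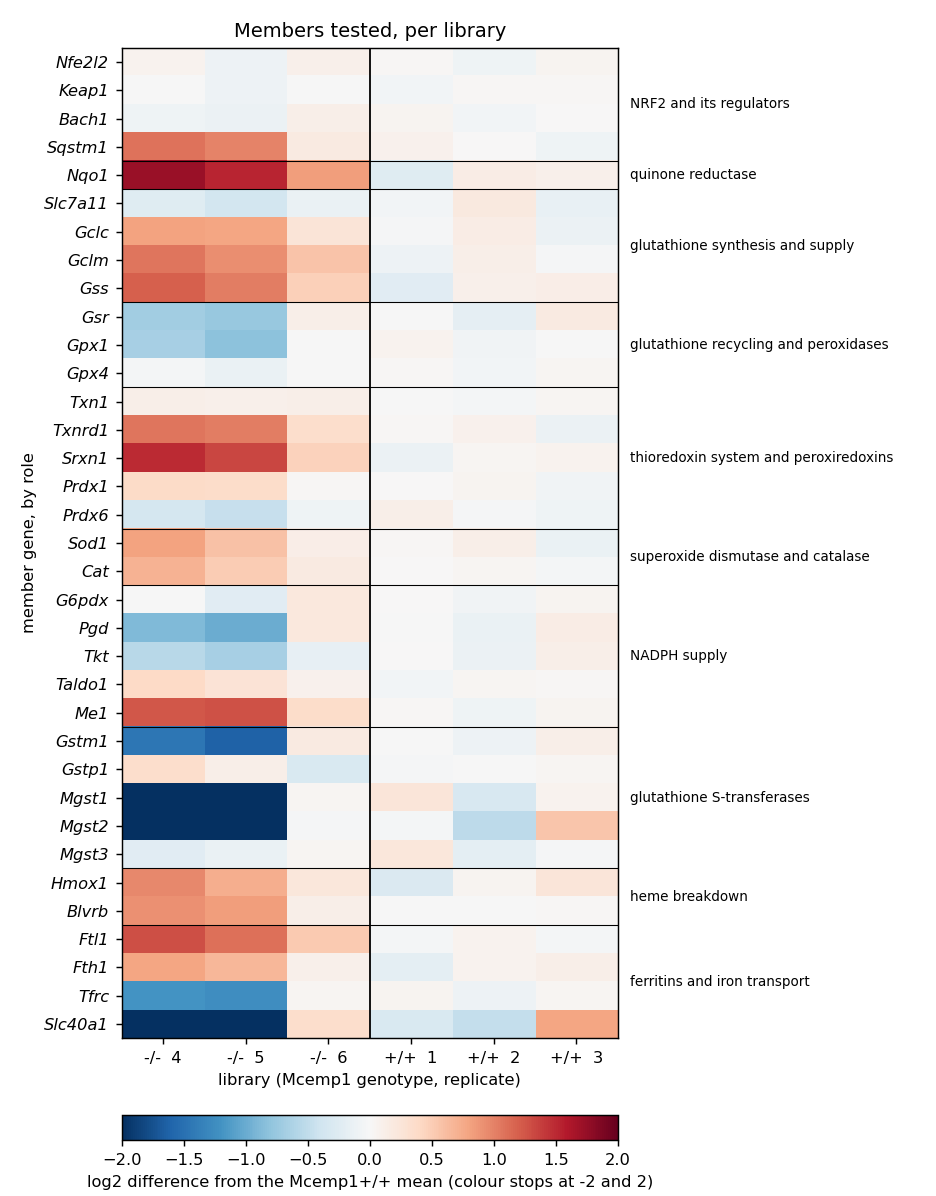
Each row is a member that was tested, grouped by role, and each column a library, with the 3 Mcemp1-/- libraries on the left; the colour is the log2 difference from the mean of the Mcemp1+/+ libraries. Rows that are red in all 3 Mcemp1-/- columns include Nqo1, Gclm, Gss and Ftl1, and the column of replicate 6 is paler than those of replicates 4 and 5.

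The genes of the NRF2 switch itself were nearly level between the groups. Nfe2l2 was at 111, 98.1 and 113 in the Mcemp1-/- libraries and 108, 99.8 and 109 in the Mcemp1+/+ libraries. Keap1, which encodes the sensor that binds NRF2, was at 64.5, 60.5 and 64.2 against 62.7, 66.1 and 65.7. Bach1, whose product represses many of the same target genes and is itself released by heme, was at 65.5, 64.8 and 75.6 against 72.9, 67.0 and 70.1. All 3 genes overlapped between the groups, with log2 differences of 0.02, -0.04 and -0.03 and standard errors of 0.08, 0.06 and 0.08, and of -0.02, -0.05 and -0.10 without replicate 6. Sqstm1, which encodes the autophagy receptor p62 and is both a regulator and a target of NRF2, was at 790, 740 and 422 in the Mcemp1-/- libraries and 395, 373 and 351 in the Mcemp1+/+ libraries. Its groups did not overlap, replicate 6 was only just above the highest Mcemp1+/+ library, and the log2 difference was 0.75 ± 0.24 (SE, limma adjusted p = 0.162, n = 3 each). Without replicate 6 it was 1.04 (limma adjusted p = 1.6e-04). Sqstm1 overlaps the gene Mrnip on the other strand, and whether the counting used strand is not stated.

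Nqo1 encodes a reductase that turns quinones into hydroquinones and is a much used readout of NRF2. Its log2 difference of 1.37 ± 0.25 (SE, limma adjusted p = 0.137) was the highest among the members. The Mcemp1-/- libraries had 419, 363 and 226 and the Mcemp1+/+ libraries 106, 139 and 135. Unlike Sqstm1, the library labelled replicate 6 was well above every Mcemp1+/+ library here, with a log2 difference of 0.84 from their mean, and without it the difference was 1.63 (limma adjusted p = 3.3e-04). Nqo1, Gsta3, Mgst1 and Mgst2 are also in the aryl hydrocarbon receptor list that the study chose on these same samples, so their direction is not independent evidence.

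The genes that make glutathione were higher in the libraries labelled Mcemp1-/-, and the gene that brings in its building block was not. The summed mast cell markers were higher in replicates 4 and 5 as well, by 0.88 and 0.91 on the log2 scale, and relative to them Gclc and Gclm overlapped between the groups. Glutathione is built in 2 steps: the ligase of GCLC (catalytic) and GCLM (modifier) joins glutamate and cysteine, and GSS adds glycine. Gclm had 244, 221 and 172 in the Mcemp1-/- libraries and 109, 126 and 115 in the Mcemp1+/+ libraries, a log2 difference of 0.85 ± 0.14 (SE). Gclc had 154, 153 and 106 against 86.7, 97.5 and 81.6, a log2 difference of 0.62 ± 0.17. Gss had 114, 102 and 69.6 against 42.3, 53.8 and 54.4, a log2 difference of 0.90 ± 0.21. In each of the 3 genes replicates 4 and 5 were highest, replicate 6 came next and no Mcemp1+/+ library reached it. Limma's adjusted p-values were 0.111, 0.154 and 0.151 in all 6 libraries, and 3.4e-04, 8.3e-04 and 0.0011 without replicate 6. The ratio of Gclc to Gclm was 0.633, 0.693 and 0.615 in the Mcemp1-/- libraries and 0.798, 0.774 and 0.712 in the Mcemp1+/+ libraries, so Gclm was higher relative to Gclc in every library labelled Mcemp1-/-. That ratio is 1 of 5 computed, all chosen after the values were seen, and its exact permutation test gave p = 0.1 (two-sided, BH-adjusted 0.125), the smallest p that 3 against 3 allows. Slc7a11, the cystine importer and a classical NRF2 target, was low and overlapped, at 4.42, 4.04 and 4.85 in the Mcemp1-/- libraries and 5.13, 6.16 and 4.78 in the Mcemp1+/+ libraries. Gss and Gclm overlap other genes in the annotation, so that their reads may be shared.

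Of the 3 members that recycle glutathione or use it against peroxides, none was higher and 2 were lower in replicates 4 and 5 only. Gsr, which encodes the reductase that restores oxidised glutathione, was at 180, 173 and 315 in the Mcemp1-/- libraries and 290, 258 and 332 in the Mcemp1+/+ libraries. Gpx1, which encodes the main cytosolic glutathione peroxidase, was at 416, 372 and 653 against 687, 629 and 656. In both genes replicates 4 and 5 lay below every Mcemp1+/+ library and replicate 6 lay within their range. The log2 differences were -0.45 ± 0.25 and -0.49 ± 0.21 (limma adjusted p = 0.280 and 0.205), and -0.73 and -0.74 without replicate 6 (limma adjusted p = 0.0030 and 5.8e-04). Gpx4, which encodes the peroxidase of membrane lipids, was at 125, 117 and 127 against 131, 123 and 131, with a log2 difference of -0.06 ± 0.06. The summed markers of neutrophil precursors and of macrophages were low in the same 2 libraries as Gsr and Gpx1. The part of these markers in the Gsr and Gpx1 values was not tested.

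The thioredoxin system carries electrons from NADPH to peroxiredoxins, which remove hydrogen peroxide. Srxn1, which encodes the sulfiredoxin that repairs over-oxidised peroxiredoxins, had 197, 176 and 96.3 in the Mcemp1-/- libraries and 64.7, 71.5 and 73.7 in the Mcemp1+/+ libraries. Txnrd1, which encodes the cytosolic thioredoxin reductase, had 715, 694 and 434 against 349, 364 and 314. In both genes all 3 libraries labelled Mcemp1-/- were above the Mcemp1+/+ range, with replicate 6 the lowest of them. Their log2 differences were 1.09 ± 0.27 and 0.81 ± 0.20 (limma adjusted p = 0.151 for each), and 1.41 and 1.04 without replicate 6 (limma adjusted p = 1.2e-04 and 2.1e-04). Txn1, the thioredoxin gene, hardly differed, at 232, 230 and 231 against 213, 208 and 221, and its log2 difference of 0.11 missed the test with and without replicate 6 (limma adjusted p = 0.225 and 0.13). Prdx1 had 346, 342 and 269 in the Mcemp1-/- libraries and 268, 278 and 253 in the Mcemp1+/+ libraries, so that replicates 4 and 5 were higher and replicate 6 was within the range (log2 difference 0.25 ± 0.11, and 0.37 without replicate 6, limma adjusted p = 0.214 and 0.0035). Prdx6, which encodes a peroxiredoxin that acts on phospholipids with glutathione, was lower at 134, 124 and 160.6 against 186, 168 and 160.7, and the gap between the groups was smaller than 1 unit. Its log2 difference was -0.30 ± 0.11, and -0.41 without replicate 6 (limma adjusted p = 0.181 and 0.0082). Txnrd1 overlaps another gene, and Prdx6 and Gpx4 have processed copies, with which reads may be shared.

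**Figure D2:**
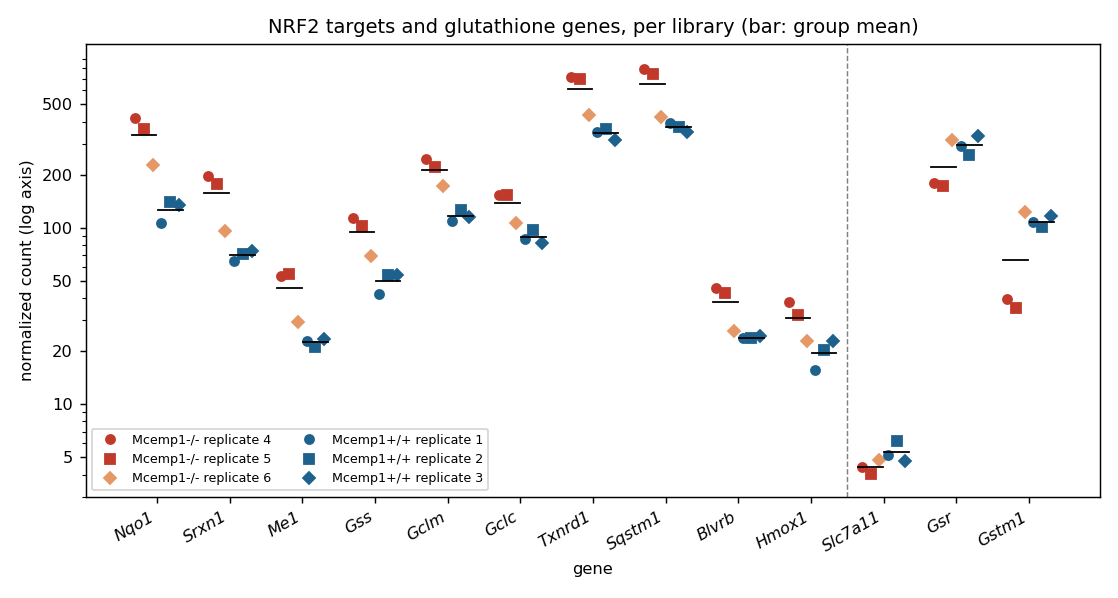
Normalized counts on a log axis in each library, Mcemp1-/- points left of Mcemp1+/+ points, with a bar at each group mean. The 10 genes left of the dashed line were chosen for being higher in replicates 4 and 5, and replicate 6 lies above all Mcemp1+/+ points in each of them except Hmox1; Slc7a11, Gsr and Gstm1, right of the line, are lower in replicates 4 and 5.

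Sod1 and Cat, the genes of cytosolic superoxide dismutase and of catalase, were higher with no overlap and by smaller amounts. Sod1 had 270, 233 and 169 in the Mcemp1-/- libraries and 156, 168 and 140 in the Mcemp1+/+ libraries. Cat had 321, 281 and 223 against 198, 204 and 192. In Sod1, which overlaps Scaf4 on the other strand, replicate 6 exceeded the highest Mcemp1+/+ library narrowly. The log2 differences were 0.51 ± 0.18 and 0.46 ± 0.14 (limma adjusted p = 0.171 and 0.155), and 0.70 and 0.60 without replicate 6 (limma adjusted p = 0.0027 and 0.0013).

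NADPH, the electron source of both systems, comes from the pentose phosphate pathway and from malic enzyme, and the members of this group split. Me1, which encodes the cytosolic malic enzyme, had 53.6, 54.7 and 29.2 in the Mcemp1-/- libraries and 22.8, 21.1 and 23.4 in the Mcemp1+/+ libraries, a log2 difference of 0.96 ± 0.25 (limma adjusted p = 0.152), and 1.25 without replicate 6 (limma adjusted p = 1.2e-04). Every library labelled Mcemp1-/- was above every Mcemp1+/+ library. Taldo1, which encodes transaldolase, had 375, 346 and 304 against 275, 292 and 290. Tkt, which encodes transketolase, had 489, 452 and 642 against 724, 659 and 775. Their log2 differences were 0.25 ± 0.09 and -0.46 ± 0.15 (limma adjusted p = 0.172 and 0.161), and 0.33 and -0.61 without replicate 6 (limma adjusted p = 0.0061 and 0.0021). These partners of the non-oxidative branch thus had opposite signs without overlap, and the ratio of Taldo1 to Tkt was 0.766, 0.766 and 0.474 in the Mcemp1-/- libraries and 0.380, 0.444 and 0.375 in the Mcemp1+/+ libraries (exact permutation p = 0.1, the smallest possible). Pgd, the second dehydrogenase of the oxidative branch, had 292, 270 and 622 against 534, 489 and 599, low in replicates 4 and 5 alone (log2 difference -0.56 ± 0.33, and -0.94 without replicate 6, limma adjusted p = 0.297 and 6.8e-04). G6pdx, the first and rate-limiting one, had 296, 255 and 345 against 300, 284 and 310 and overlapped.

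Dividing each library by its own summed mast cell markers gives each level relative to the mast cell RNA, whichever cell the member's RNA came from. This scaling was chosen after the data were seen, and 16 of the 17 markers were higher in replicates 4 and 5 than in any Mcemp1+/+ library. The scaling left 6 members higher without overlap, 17.1% of those tested, beside 1.37% of all genes (185 genes). All 6 were also higher without overlap as deposited. Cpa3 made up 14778 of the marker sum of 29672 in replicate 6. Hpgds, itself 1 of the 17 markers, was also higher without overlap per 10000 of marker sum. It was 38.2, 38.9 and 43.3 in the Mcemp1-/- libraries and 30.7, 32.0 and 29.1 in the Mcemp1+/+ libraries. Whether the 6 members stand out beyond mast cell genes was not tested. In units per 10000 of marker sum, Nqo1 was 80.01, 68.0 and 76.3 in the Mcemp1-/- libraries and 38.3, 49.5 and 46.3 in the Mcemp1+/+ libraries. Srxn1 was 37.6, 33.0 and 32.5 against 23.3, 25.4 and 25.3, and Me1 was 10.2, 10.2 and 9.85 against 8.22, 7.51 and 8.02. In these 3 genes the library labelled replicate 6 was close to replicates 4 and 5. Ftl1 was 1429, 1231 and 1483 against 1078, 1150 and 1031. Txnrd1 and Gss were higher by narrow margins, with 129.8 as the lowest Mcemp1-/- and 129.3 as the highest Mcemp1+/+ value of Txnrd1. Sqstm1, Gclc, Gclm, Txn1, Sod1, Cat, Taldo1 and Blvrb overlapped between the groups on this scale. On the lower side were 7 members, 20%, beside 37.5% of all genes, a smaller share than among genes at large.

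**Figure D3:**
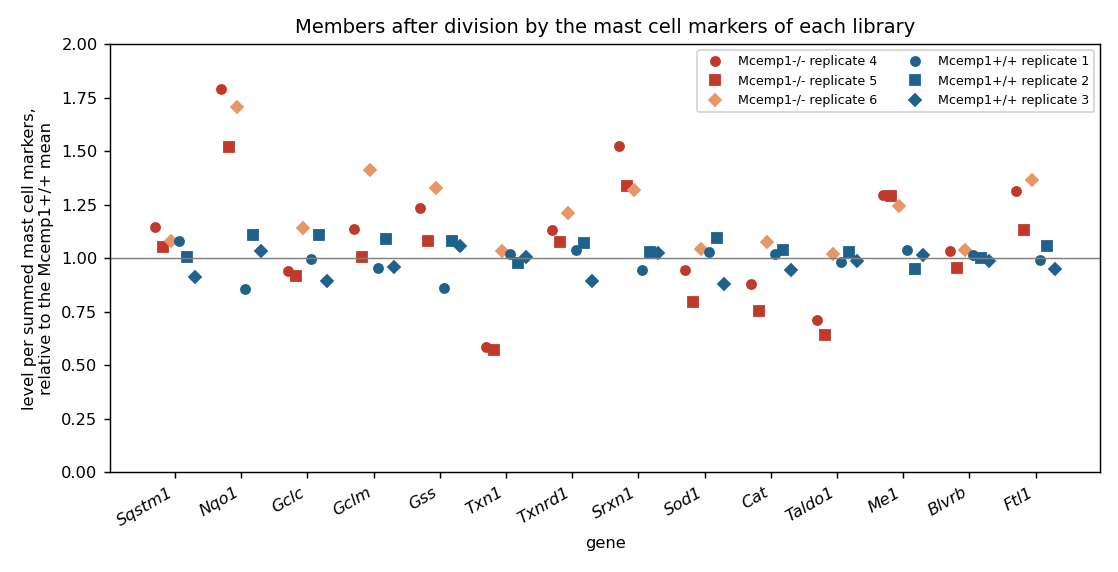
Level of the 14 members that were higher without overlap, divided by the summed mast cell markers of each library and shown relative to the Mcemp1+/+ mean (linear axis from 0). For Nqo1, Srxn1 and Me1 all 3 Mcemp1-/- points, replicate 6 included, lie above the Mcemp1+/+ points by a clear gap. Gclc, Txn1, Sod1, Cat and Taldo1 lie below 1 in replicates 4 and 5.

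The promoters of the members were read for the letters of the antioxidant response element core, TGACNNNGC on either strand. NRF2 controls many of the members, but the set was chosen by gene name and is not defined by NRF2. RefSeq start sites on build GRCm38.p6 were available for 31 members, with a window of 250 bases before and 50 after the start. The core was present in 11 of the 31 members (35.5%) and in 3781 of 27025 genes (14.0%). It was present in 5 of the 13 members with an entry that were higher without overlap, and in 6 of the 18 others. Those 5 are shown, with Prdx1 because it shares its core with Me1; capitals mark the core and the strand printed is the one that reads TGAC.
Txnrd1: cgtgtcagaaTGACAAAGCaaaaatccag
Gclm: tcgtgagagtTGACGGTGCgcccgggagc
Srxn1: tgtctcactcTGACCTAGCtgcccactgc
Sod1: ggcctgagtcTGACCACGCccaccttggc
Me1: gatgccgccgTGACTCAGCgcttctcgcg
Prdx1: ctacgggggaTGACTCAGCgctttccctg
All 6 are read from the minus strand, at chr10:82859104-82859132 (Txnrd1), chr3:122245413-122245441 (Gclm), chr2:152105542-152105570 (Srxn1), chr16:90220696-90220724 (Sod1), chr9:86695902-86695930 (Me1) and chr4:116685456-116685484 (Prdx1). The Me1 and Prdx1 cores also hold TGACTCA, the letters that AP-1 and NF-E2 proteins bind. The Nqo1 window held no core, which says only that these letters are not in those 300 bases.

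Glutathione S-transferases attach glutathione to reactive compounds, and 3 of the 7 were far lower in replicates 4 and 5 alone. Mgst1, a microsomal transferase, had 0.268, 0.212 and 30.03 in the Mcemp1-/- libraries and 34.8, 23.4 and 30.7 in the Mcemp1+/+ libraries. Mgst2, which can also form leukotriene C4, had 1.15, 0.942 and 42.7 against 42.2, 30.1 and 63.9. Gstm1, a cytosolic transferase of the mu class, had 39.6, 35.2 and 123 against 108, 101 and 117. The library labelled replicate 6 lay inside the Mcemp1+/+ range for Mgst1 and Mgst2 and just above it for Gstm1, so the groups overlapped. The log2 differences were -3.57 ± 1.48, -3.24 ± 1.34 and -0.96 ± 0.47 (limma adjusted p = 0.200, 0.200 and 0.242). Without replicate 6 they were -5.37, -4.85 and -1.53 (limma adjusted p = 3.2e-05, 1.4e-04 and 1.2e-04), and the first 2 depend on the constant added before the logarithm. The neutrophil precursor markers (15 in the table) summed to 486 and 355 in Mcemp1-/- replicates 4 and 5 and 13824 in replicate 6. The Mcemp1+/+ libraries had 9202 to 15303, the same split as in Mgst1 and Mgst2. Ctsg, which did not follow that split, made up most of the sum in replicates 4 and 5 (436 and 346). Whether those cells carried the transferase RNA was not tested. Gstp1 had 63.4, 53.6 and 40.2 in the Mcemp1-/- libraries and 48.9, 49.3 and 50.7 in the Mcemp1+/+ libraries, and Mgst3 had 1.87, 2.04 and 2.34 against 2.73, 1.93 and 2.22; both overlapped. Gsta3 and Gsta4 were under the filter and were not tested. Gsta3 had 0.545, 0.665 and 0.290 against 0.272, 0.215 and 0.228, higher without overlap at a level near the bottom of the scale, and Gsta4 ranged over all libraries between 0.127 and 0.619.

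**Figure D4:**
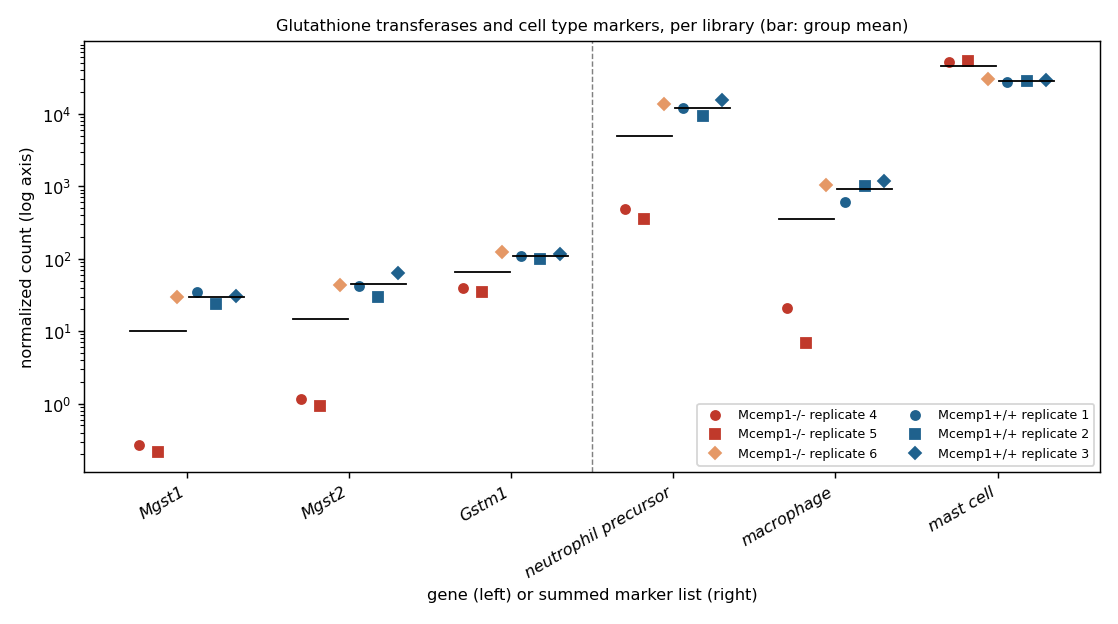
Normalized counts on a log axis of 3 glutathione transferase genes (left of the dashed line) and of 3 summed marker lists (right of it) in each library, with bars at the group means. Mgst1, Mgst2 and the neutrophil precursor and macrophage sums are low in Mcemp1-/- replicates 4 and 5 only. The mast cell sum is high in those 2 libraries.

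Heme is opened by heme oxygenase, which frees its iron and leaves biliverdin. Hmox1, the inducible heme oxygenase gene and a target of both NRF2 and BACH1, had 38.0, 32.2 and 22.70 in the Mcemp1-/- libraries and 15.7, 20.2 and 22.96 in the Mcemp1+/+ libraries. Replicate 6 fell short of the highest Mcemp1+/+ library, so the groups overlapped. Blvrb, a biliverdin reductase gene, had 45.5, 42.9 and 25.9 against 23.7, 23.7 and 24.3 and did not overlap. The log2 differences were 0.63 ± 0.23 and 0.62 ± 0.22 (limma adjusted p = 0.175 and 0.17), and 0.84 and 0.87 without replicate 6 (limma adjusted p = 0.010 and 2.9e-04). Blvra and Hmox2, from the wider pathway list, both overlapped. Blvra had 38.6, 42.6 and 30.4 against 30.2, 34.8 and 34.0, higher in replicates 4 and 5 only. Hmox2 had 51.1, 48.3 and 53.8 against 54.0, 51.7 and 60.9. Their log2 differences were 0.16 ± 0.14 and -0.12 ± 0.09 (limma adjusted p = 0.468 and 0.389).

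Ferritin stores the freed iron in a shell of light and heavy chains, transferrin receptor takes iron in, and ferroportin lets it out. Ftl1, the light chain gene, was the highest member per length, at 4593 normalized counts per kb of exon in Mcemp1-/- PC and 2298 in Mcemp1+/+ PC, and Fth1, the heavy chain gene, had 457 and 314 per kb. Ftl1 had 7482, 6583 and 4401 in the Mcemp1-/- libraries and 2993, 3238 and 3006 in the Mcemp1+/+ libraries, a log2 difference of 0.96 ± 0.21 (limma adjusted p = 0.151). Its groups did not overlap, and replicate 6 lay between; without it the difference was 1.19 (limma adjusted p = 1.85e-04). Fth1 had 1871, 1718 and 1162 against 952, 1134 and 1181, and replicate 6 was inside the Mcemp1+/+ range (log2 difference 0.52 ± 0.20, and 0.73 without replicate 6, limma adjusted p = 0.187 and 0.0027). The ratio of Ftl1 to Fth1 was 3.998, 3.83 and 3.79 in the Mcemp1-/- libraries and 3.14, 2.86 and 2.55 in the Mcemp1+/+ libraries (exact permutation p = 0.1, the smallest possible). In this ratio the library labelled replicate 6 was close to replicates 4 and 5. Ftl1 has processed copies in the genome with which it may share reads.

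The iron uptake and export genes were lower in replicates 4 and 5 and not in replicate 6. Tfrc, the transferrin receptor gene, had 224, 215 and 526 in the Mcemp1-/- libraries and 535, 478 and 528 in the Mcemp1+/+ libraries. Slc40a1, the gene of ferroportin, had 0.669, 0.127 and 67.5 against 42.7, 38.0 and 92.0. The log2 differences were -0.80 ± 0.35 and -3.89 ± 1.78 (limma adjusted p = 0.210 and 0.221), and -1.22 and -6.01 without replicate 6 (limma adjusted p = 9.6e-05 and 2.5e-04). The size of the Slc40a1 difference depends on the constant added before the logarithm, because replicates 4 and 5 were near the bottom of the scale. Slc40a1 was low in the same libraries as the sum of the 11 macrophage markers in the table. That sum was 21.1 and 6.83 in replicates 4 and 5 and 1035 in replicate 6, against 601 to 1163 in the Mcemp1+/+ libraries. It was mostly Lyz2 in replicate 6 (892), and 5 of the 11 markers were lower without overlap, replicate 6 included. The part of these markers in the Slc40a1 values was not tested.

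**Figure D5:**
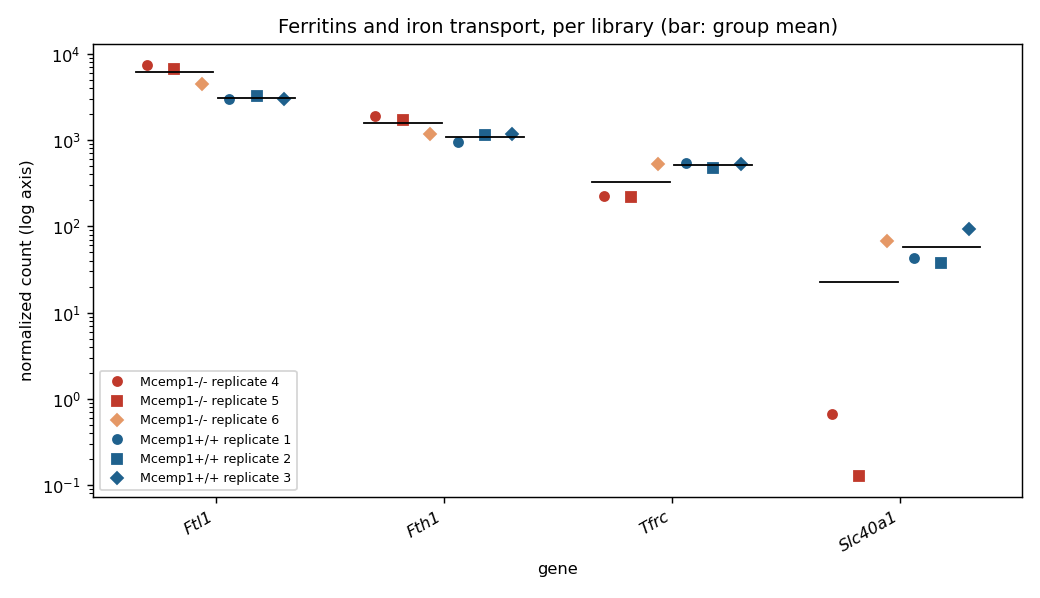
Normalized counts on a log axis of the ferritin genes Ftl1 and Fth1, the transferrin receptor gene Tfrc and the ferroportin gene Slc40a1 in each library, with bars at the group means. Ftl1 is higher in all 3 Mcemp1-/- libraries, and Tfrc and Slc40a1 are low in replicates 4 and 5 only.

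These 4 iron genes carry iron responsive elements, hairpins with a CAGTGN loop that iron regulatory proteins hold when iron is scarce. In a 5′ untranslated region the bound protein blocks translation without lowering the RNA, and in the 3′ region of Tfrc it protects the RNA from decay, so a ferritin RNA level does not read that block. A search of GENCODE vM21 transcripts (GRCm38) for the loop on a stem of 5 pairs with an unpaired C found an element in the first 250 bases of 34 of 21877 protein-coding genes (0.155%), 3 of them members: Ftl1, Fth1 and Slc40a1. The hairpins are shown for both ferritins, ferroportin and the first in Tfrc, with the fixed bases of the loop in capitals.
Ftl1: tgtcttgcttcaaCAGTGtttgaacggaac
Fth1: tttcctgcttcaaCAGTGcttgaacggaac
Slc40a1: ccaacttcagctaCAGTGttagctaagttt
Tfrc: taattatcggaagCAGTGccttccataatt
They lie at chr7:45459779-45459808 on the minus strand (Ftl1), chr19:9982731-9982760 on the plus strand (Fth1), chr1:45925465-45925494 on the minus strand (Slc40a1) and chr16:32631218-32631247 on the plus strand (Tfrc). Tfrc holds 4 such elements, all in its 3′ untranslated region. Of the members, 5 of 37 hold an element anywhere in the transcript, beside 1.34% of genes, the fifth being a match in the coding sequence of Keap1. The ratio of Ftl1 to Tfrc RNA was 33.4, 30.6 and 8.36 in the Mcemp1-/- libraries and 5.60, 6.78 and 5.70 in the Mcemp1+/+ libraries, without overlap (exact permutation p = 0.1, the smallest possible). The ratio of Fth1 to Tfrc, at 8.36, 7.97 and 2.21 against 1.78, 2.37 and 2.24, overlapped (exact permutation p = 0.3).

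Among other genes of these pathways, listed with earlier results of these data known, 125 of 142 were in the table and 114 were tested. None passed limma's adjusted test in all 6 libraries, with 11 higher (9.65%) and 27 lower (23.7%) at an unadjusted p under 0.05, beside 11.6% and 13.8% of all genes. Without overlap there were 12 higher (10.5%) and 30 lower (26.3%), so that, unlike in the members, the higher share was below that of all genes and the lower share above it. Without replicate 6, limma called 22 higher (19.3%) and 41 lower (36.0%), beside 19.4% and 22.4% of all genes. Among genes with a mean of at least 5 and no overlap, the 3 higher ones with the lowest p were Osgin1, Esd and Hpgds. Osgin1, an NRF2 target whose product restrains growth, had 39.6, 39.2 and 20.5 in the Mcemp1-/- libraries and 8.82, 8.97 and 10.4 in the Mcemp1+/+ libraries, a log2 difference of 1.71 ± 0.27 (limma adjusted p = 0.111), larger than that of any member on the higher side. Esd, which encodes an S-formylglutathione hydrolase, had 135, 121 and 116 against 90.4, 96.1 and 86.2. Hpgds, the glutathione-using prostaglandin D2 synthase gene and also 1 of the mast cell markers, had 200, 208 and 129 against 85.2, 90.2 and 85.0. All 3 were higher without overlap in each library labelled Mcemp1-/-. Under the same limits, the 3 lower ones with the lowest p were Steap3, Prdx2 and Idh2. Steap3, which encodes a ferric reductase of endosomes, had 5.89, 6.58 and 9.03 in the Mcemp1-/- libraries and 18.3, 18.6 and 14.9 in the Mcemp1+/+ libraries. Prdx2, a cytosolic peroxiredoxin gene, had 50.1, 48.6 and 43.5 against 69.5, 66.2 and 59.0. Idh2, which encodes an NADPH-forming dehydrogenase of mitochondria, had 108, 101 and 113 against 157, 148 and 129. In these 3 the library labelled replicate 6 was on the same side as replicates 4 and 5. Of the 14 other NADPH supply genes, 10 were lower without overlap (71.4%) and none was higher. Of all genes tested, 14.7% were lower and 14.8% higher. This list was picked out after the values were seen, and in the other lists of these pathways the lower share was 10% to 26.5%. Relative to the summed mast cell markers, 5 of the 114 were higher without overlap (Osgin1, Pir, Oplah, Hpgds and Cybrd1), 4.39%, beside the 1.37% of all genes given above, and 56 were lower, 49.1%, beside 37.5%.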

How the data were processed

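RNA libraries were made by the authors with a KAPA mRNA HyperPrep kit, read on an Illumina sequencer and analysed in Partek Flow; the submitters' processing notes name mm10. What the authors deposited is a normalized count for each gene, close to CPM, with one column per library. No aligner, annotation, strand setting, normalization method or gene filter was given in the sources used here. Whole reads could not be recovered, so no count model was run. The column totals reflect the normalization, and the depth is unknown.

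Tests used limma 3.58.1 in R 4.3.3 (lmFit, then eBayes with a trend) on the 13517 genes whose mean reached 1 CPM. The deposited values were first put on the log2 scale after adding 0.479 (0.5 CPM at the mean column total), which understates the change of low genes. Benjamini-Hochberg adjustment ran over all of these genes. The study's own test, the gene specific analysis of Partek Flow, was not used here. A check on simulated data was run after the fit. It used independent noise with spreads below the median of these data, so it does not cover the wide spread that replicate 6 brings. Members, roles, pathway and marker lists were chosen with earlier results of these data known. Every member is given. Pathway genes are the 3 with the lowest p in each direction without overlap and with a mean of at least 5. Blvra and Hmox2 were added beside Blvrb and Hmox1. Groups do not overlap where every library of 1 group exceeds every library of the other. Ratios within a library were tested with an exact two-sided permutation test over the 20 assignments. Values per kb use the exons of GENCODE vM21, whose gene starts equal those of the table for all 37 members. Promoters are from RefSeq. Alternatives were pseudocounts of 0.1 and 2, a mean of 5 as the filter or none, TMM factors, eBayes without the trend and each library left out. Figures were drawn with matplotlib 3.10.9.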

Additional observations from a re-analysis of the deposited data

How the results depend on the processing

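Under pseudocounts of 0.1 and 2, other filters, TMM factors and eBayes without the trend, no member passed limma's adjusted test and none changed direction. Leaving out single libraries gave 0 to 16 members called higher and 0 to 10 called lower (0 to 22 and 0 to 41 pathway genes, 0 to 2623 and 0 to 3022 of all genes, where 2 and 8 were called with all libraries), and every highest value came from leaving out Mcemp1-/- replicate 6, without which 26 of 35 members passed. At an unadjusted p under 0.05 the counts were 15 and 2 members, 11 and 27 pathway genes and 1566 and 1863 of all genes, and with a pseudocount of 2 there were 5 lower among all genes. Members lower without overlap were 2, and 1 with TMM factors, 7 per mast cell markers, 12 without Mcemp1-/- replicate 6 and 6 without Mcemp1+/+ replicate 2; those higher were 14, and 6 per mast cell markers. Without Mcemp1+/+ replicate 2, 10 members were higher and 1 lower at an unadjusted p under 0.05. For the counts without overlap with TMM factors or with a library left out, the share of all genes was not counted. The same holds for the unadjusted counts without Mcemp1+/+ replicate 2. These counts therefore cannot be read as particular to the members. With single libraries left out the log2 difference crossed 0 in Nfe2l2 (-0.019 to 0.083), Bach1 (-0.102 to 0.0087), G6pdx (-0.116 to 0.102), Gstp1 (-0.0942 to 0.231) and Mgst3 (-0.205 to 0.0018), none of which passed the test in any setting. The cause was not tested. No paired analysis was possible because the groups share no replicate numbers.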

Other observations

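Genes of heme synthesis were also listed with the pathway and are given here as values chosen after they were seen. Alas1, the first and rate-limiting enzyme gene of heme synthesis outside red cells, had 19.5, 18.2 and 633 in the Mcemp1-/- libraries. The Mcemp1+/+ libraries had 509, 432 and 687. Alas1 was thus low in replicates 4 and 5 only, as the summed neutrophil precursor markers were. Cpox, the gene of a later step, differed less and in replicate 6 as well, with 24.5, 22.6 and 30.6 in the Mcemp1-/- libraries and 35.9, 34.9 and 39.5 in the Mcemp1+/+ libraries. Tfr2, a second transferrin receptor gene, had 0.402, 0.523 and 0.405 in the Mcemp1-/- libraries and 2.48, 18.8 and 6.16 in the Mcemp1+/+ libraries, a gap that held in every library although the Mcemp1+/+ values ranged widely. Cybrd1, a ferric reductase gene, had 80.5, 72.8 and 40.1 in the Mcemp1-/- libraries and 26.7, 30.6 and 29.7 in the Mcemp1+/+ libraries. None of these passed limma's adjusted test in all 6 libraries.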
